A study of Caenorhabditis elegans with 18 samples.

Results

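Transcripts of the major sperm proteins (msp genes) and of 3 smaller groups of sperm-specific genes (msd, ssp and sss) were followed across 18 RNA sequencing libraries from whole Caenorhabditis elegans at the L4 larval stage. The genes were chosen by name alone: every gene of the deposited table whose WormBase symbol is msp, msd, ssp or sss followed by a number, which gave 48 of 20953 genes. They comprise 31 msp, 4 msd, 12 ssp and 1 sss gene. The libraries form 9 groups of 2, from 3 genotypes under 3 treatments, and each library came from about 3000 whole animals. The genotypes were the wild type, strain N2, a deletion of nhr-10 (allele tm4695, strain not named in the labels) and a deletion of nhr-68 (allele gk708, strain VC1527). Each deletion was therefore represented by 1 allele in 1 line. In all genotypes, animals were synchronized over successive generations by 18 hours of L1 arrest on plates with no added vitamin B12. For 48 hours they then received no addition, vitamin B12 at 20 nM, or that dose of B12 together with propionate at 40 mM, so propionate was never given without B12. The sample titles give the untreated groups as OP50, a bacterial strain used as worm food, and name no food for the others.

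Sperm of nematodes have no flagellum and crawl like amoebae. The major sperm protein takes the place of actin in this movement: it assembles into filaments that push the front of the cell forward, and it is also released as a signal that makes oocytes mature and the gonad sheath contract. Hermaphrodites make sperm in the late larval stages and then switch to making oocytes, so L4 animals carry the sperm programme at high activity. The msd and ssp genes encode small proteins with an MSP-like domain, found in sperm. nhr-10 and nhr-68 encode nuclear hormone receptors, transcription factors known in the worm for switching on the enzymes of an alternative, B12-independent route of propionate breakdown.

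The msp genes were near-identical copies and are described first as a family. All 31 are annotated with 1 exon, and 28 of them have the same coding length of 384 bases. They lie in 3 stretches of the WBcel235 genome. On chromosome II, 13 genes lie between 4785898 and 5810330. On the left of chromosome IV, 9 genes lie between 5055631 and 5316906, and in the middle of chromosome IV another 9 lie between 9689015 and 10143740. The authors' program divided reads that fit several copies among them by estimate, so the value of a single copy is less certain than the sum over copies.

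The deposited values are FPKM (fragments scaled to transcript length and to the library total), which can be compared between genes because length is divided out. In the 6 wild-type libraries nhr-10 stood at 12.2 to 33.5 FPKM against 6.14 to 10.3 in the 6 nhr-10 deletion libraries. nhr-68 stood at 48.7 to 108 FPKM in wild type against 1.71 to 14.95 in the nhr-68 deletion. In the nhr-10 deletion libraries nhr-68 ran from 5.18 to 140 FPKM with a median of 15.6, which overlaps both. In the nhr-68 deletion libraries nhr-10 stood at 16.9 to 21.8 FPKM. The file holds no counts. A depth of about 11880000 to 14120000 fragments per library was estimated from the spacing of low values, at which 1 fragment is worth 0.2 to 0.22 FPKM in a gene of 384 bases. That estimate moved with genotype, at 13980000 to 14120000 in the nhr-68 libraries and 11880000 to 13660000 in the other 12, and its part in the results was not tested. The labels do not say that the 2 libraries of a group came from separate cultures, so p-values measure the spread between these libraries. In whole animals, fewer sperm-forming cells and less RNA per cell cannot be told apart.

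Wild-type B12 library 2 stood apart from the rest for the sperm genes. It had the lowest msp, msd and ssp sums of all 18 libraries. On the log2(FPKM + 1) scale its values lay a median of -0.54 from those of wild-type B12 library 1 over the 46 tested sperm genes, and only 2 of the 46 were higher in library 2. Over all 15575 tested genes the same difference had a median of -0.10. In the other 8 groups the absolute difference between the 2 libraries had a median between 0.10 and 0.25 over the sperm genes, against 0.56 in this group. For the sperm genes in comparisons that use the wild-type B12 group, the counts of calls, the medians and the ratios of sums without this library are given beside them. For the other gene lists most of these values are not given.

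Sperm genes were among the most abundant transcripts. Of the 48, 25 (21 of them msp) ranked among the 500 genes of highest mean FPKM in the table, 33 had a mean of at least 100 FPKM, and 42 were never under 1 FPKM in any library. The 48 genes together made up between 0.923% and 1.73% of the summed FPKM of a library. Only msp-32 (0 to 0.67 FPKM) and msp-58 (0 to 0.55 FPKM) stayed under the level required for testing, which left 46 tested genes: 29 msp, 4 msd, 12 ssp and 1 sss. The median of the genes' mean levels was 301 FPKM for msp genes on chromosome II and 362 FPKM for those on chromosome IV, against 31.2 FPKM for ssp genes.

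The highest msp copies over all libraries were msp-59 (mean 637 FPKM, range 470 to 937), msp-57 (mean 611 FPKM, range 395 to 745) and msp-19 (mean 595 FPKM, range 386 to 831), all on the left of chromosome IV. Their ranges overlap, and their order is not separated from the spread among libraries. At the low end, msp-63 and msp-74 on chromosome II averaged 12.3 and 10.1 FPKM. Among the others, msd-4 on chromosome III (4868414 to 4868743) averaged 396 FPKM, the msd-1 gene F44D12.7 averaged 327 FPKM and msd-2 averaged 309 FPKM. Of the ssp genes the highest were the ssp-9 gene E03H12.10 at 456 FPKM, ssp-34 at 102 FPKM and ssp-10 at 87.8 FPKM. sss-1, a 3-exon gene on chromosome IV (9892739 to 9893749), averaged 198 FPKM.

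Some names cover more than 1 gene. The symbol ssp-9 is carried by E03H12.10 and by T28H11.6 (mean 46.5 FPKM), and the symbol msd-1 by F44D12.7 and by F44D12.3 (mean 4.0 FPKM). The sum of both ssp-9 genes ran from 332 to 632 FPKM and that of both msd-1 genes from 153 to 441 FPKM, in both cases lowest in wild-type B12 library 2. Genes that only RefSeq names as msp or sss pseudogenes were not counted; the highest of them were msp-71 (45.2 to 119 FPKM) and sss-2 (59.4 to 141 FPKM). Over the whole study, the highest library was under 3 times the lowest in 34 of the 46 tested genes. The same share over all tested genes is not given here.

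The summed FPKM of the 48 genes gives the course of the whole group. In wild type it was 13353 and 15127 untreated, 11348 and 8025 with B12, and 13198 and 13850 with B12 and propionate. B12 was thus the lowest of the wild-type treatments and did not overlap the other groups. In nhr-10 animals the sum was 10193 and 12201 untreated, 14438 and 15267 with B12, and 11406 and 10172 with B12 and propionate. Here B12 was the highest treatment, again without overlap. In nhr-68 animals the sum was 11090 and 10276 untreated, 12297 and 11556 with B12, and 10467 and 10920 with B12 and propionate, with B12 again highest and a narrower range.

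As group means, the wild-type sum was 14240 ± 1254 FPKM (SD, n = 2) untreated, 9687 ± 2350 with B12 and 13524 ± 461 with B12 and propionate. The ratio of B12 to untreated was 0.680 in wild type, 1.33 in nhr-10 and 1.12 in nhr-68. The ratio of B12 with propionate to B12 was 1.40, 0.726 and 0.897 in the same order. The wild-type ratios without B12 library 2 were 0.797 and 1.19. In each of these 6 comparisons the libraries of the groups did not overlap. Between B12 with propionate and untreated the ratios were 0.950, 0.964 and 1.001, and the libraries overlapped in all 3 genotypes.

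**Figure D1:**
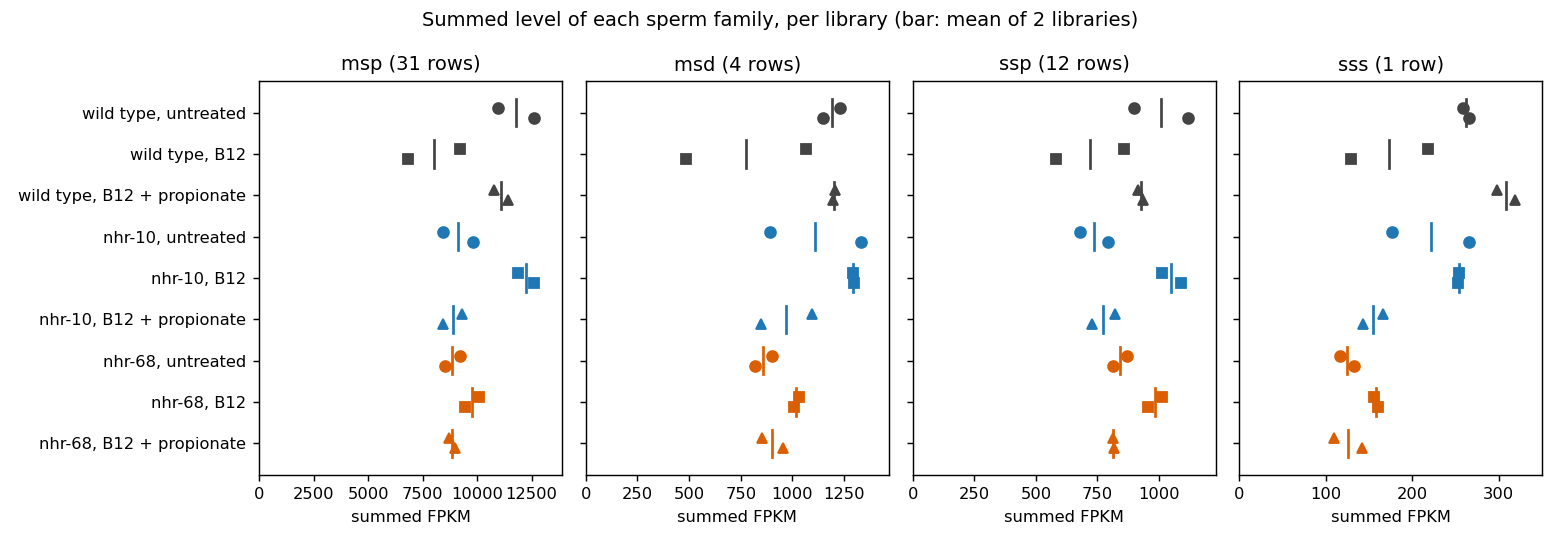
Summed FPKM per library for the msp, msd, ssp and sss genes, 1 panel per family, with the 9 groups as rows; points are libraries, bars the mean of 2, and each axis starts at 0. Wild-type B12 is the lowest wild-type group in every panel, and wild-type B12 library 2, with a msp sum of 6828 FPKM, is the lowest library for msp, msd and ssp.

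The families lay on the same side in wild type. B12 over untreated was 0.681 for msp, 0.653 for msd, 0.714 for ssp and 0.662 for sss. Propionate over B12 was 1.38, 1.55, 1.28 and 1.78. Without wild-type B12 library 2 the first set of ratios was 0.781, 0.897, 0.852 and 0.833, and the other 1.20, 1.13, 1.08 and 1.41. Without library 1 of that group the msd ratios were 0.410 and 2.47. In nhr-10 the B12 to untreated ratio was 1.34 for msp and 1.43 for ssp without overlap of libraries, and 1.17 for msd and 1.14 for sss with overlap. For sss-1, the libraries with B12 and propionate also lay apart from untreated, above in wild type (ratio 1.18) and under in nhr-10 (ratio 0.697).

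**Figure D2:**
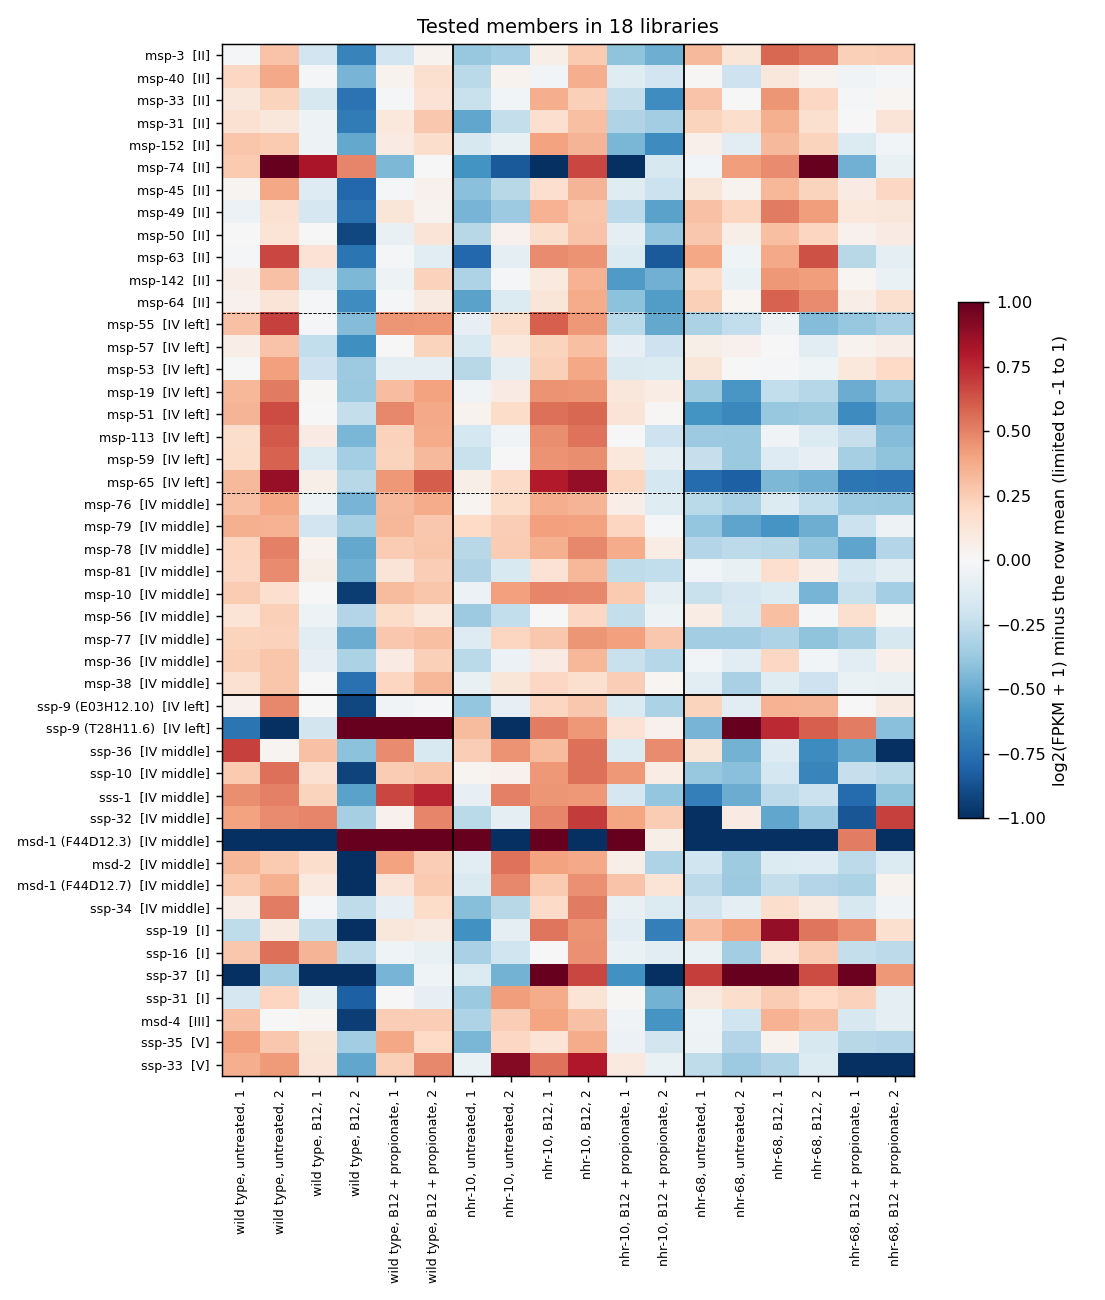
The 46 tested genes as rows, ordered by family and by msp chromosome stretch, and the 18 libraries as columns; colour is log2(FPKM + 1) minus the gene's mean over all libraries, limited to -1 to 1. The column of wild-type B12 library 2 is low across nearly all genes. In all 6 nhr-68 columns, 6 of the 8 msp genes of the left of chromosome IV are below their own mean. The same holds for 6 of the 9 in the middle of chromosome IV, against 0 of 12 on chromosome II.

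The first comparisons ask what B12, and propionate on top of B12, did in wild-type animals. msp-79, in the middle of chromosome IV (9766771 to 9767154), stood at 645 and 641 FPKM untreated and at 441 and 399 FPKM with B12. The untreated libraries lay above both B12 libraries. It fell by 0.62 ± 0.12 on the log2(FPKM + 1) scale (limma SE, adjusted p = 0.0478, limma with Benjamini-Hochberg adjustment over 15575 genes, the test used throughout) and was the only sperm gene called, 1 of 46 lower against 0.34% of all tested genes, and 0 of 46 higher against 0.276%. The call was lost whichever of the 4 libraries was left out.

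The other sperm genes lay on the same side without passing the test. Of the 46, 44 had a log2 difference below 0, 36 had both B12 libraries under both untreated libraries (25.1% of all tested genes did), and 34 had an unadjusted p under 0.05 in that direction against 6.79% of all genes. The median log2 difference was -0.59 over the sperm genes and -0.08 over all genes. msp-59 stood at 708 and 937 FPKM untreated and at 566 and 492 FPKM with B12, a log2 difference of -0.62 ± 0.15 with an adjusted p of 0.143 in limma. sss-1 stood at 259 and 266 FPKM untreated and at 219 and 129 FPKM with B12, a difference of -0.64 ± 0.23 with an adjusted p of 0.455 in limma. In both, the B12 libraries were the lower ones. Without wild-type B12 library 2, no sperm gene was called, the median was -0.27 and 10 genes had an unadjusted p under 0.05; without library 1 instead, 11 were called.

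Adding propionate to B12 in wild type called no sperm gene, 0 of 46 against 0.27% of all genes higher. The smallest adjusted p in limma was 0.0705. In 33 of the 46 both libraries with propionate lay above both B12 libraries, against 32.1% of all genes, and 28 had an unadjusted p under 0.05 for higher values against 14.2%. The median log2 difference was 0.51, against 0.08 over all genes. Without wild-type B12 library 2 the count was 0, the median 0.22 and 6 genes had an unadjusted p under 0.05; without library 1 of that group 11 were called. sss-1 reached 298 and 319 FPKM with propionate, above both B12 libraries, a difference of 0.87 ± 0.23 with an adjusted p of 0.102 in limma. Between B12 with propionate and no treatment, 0 sperm genes were called in either direction (0.128% of all genes were higher and 0.167% lower), 1 had an unadjusted p under 0.05 for a lower value against 3.2% of all genes, and the median difference was -0.07.

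Oocyte genes lay on the same side as the sperm genes in wild type, without passing the test. The summed FPKM of 25 oocyte and ovulation genes with B12 was 0.554 of the untreated level and, with propionate, 2.22 times the B12 level, with all 25 genes below 0 in the first comparison and above 0 in the other. None of the 25 was called in limma in the B12 comparison; 12 had an unadjusted p under 0.05. Single libraries carried these ratios, which were 0.835 without untreated library 2 and 1.498 without propionate library 2. The 41 tested genes of other sperm functions, such as spe-9 and spe-41, which act in the fusion with the egg, and fer-1, which acts in membrane fusion during sperm activation, had a median log2 difference of -0.23 with B12, and 9 had an unadjusted p under 0.05. Their sum was 3848 and 3897 FPKM untreated and 3721 and 2412 FPKM with B12. The lower level with B12 thus lay mostly in wild-type B12 library 2. Yolk protein genes, expressed in the adult intestine, summed to 0.417 of the untreated level with B12 and to 3.05 times the B12 level with propionate. The first of these was 0.853 without untreated library 2 and 0.276 without untreated library 1, and the other was 1.25 without propionate library 2 and 4.86 without propionate library 1. The part of animal age at collection in these values was not tested.

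In nhr-10 animals, the sperm genes with B12 lay on the opposite side. No gene was called higher, against 0.193% of all genes, and the smallest adjusted p in limma was 0.0945. The values were above untreated in 45 of 46 genes, in 36 without overlap of libraries (11.8% of all genes), and 23 had an unadjusted p under 0.05 against 3.51% of all genes. msp-59 stood at 532 and 622 FPKM untreated and at 851 and 860 FPKM with B12, a difference of 0.57 ± 0.15 with an adjusted p of 0.165 in limma. ssp-34 stood at 74.3 and 82.3 FPKM untreated and at 114.5 and 144 FPKM with B12, a difference of 0.71 ± 0.17 with an adjusted p of 0.1005 in limma. Both B12 libraries were above both untreated ones in each of these genes. The median log2 difference was 0.44 over the sperm genes and -0.12 over all genes. With median-ratio scaling of the libraries, which shifted the median of all genes by 0.12, the sperm genes had a median of 0.58 and 2 were called. In the same comparison the yolk sum was 2.69 times untreated and that of the other sperm genes 1.23 times, both without overlap. The oocyte sum was 1.23 times and that of moulting and cuticle genes 0.998 times untreated, both with overlap. The part of stage was not tested.

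Propionate on top of B12 lowered part of the sperm genes in nhr-10 animals. Of the 46, 10 fell, against 2.68% of all tested genes, and 0 rose against 4.55%. msp-152, on chromosome II (4933027 to 4933410), stood at 578 and 553 FPKM with B12 and at 318 and 283 FPKM with B12 and propionate. It fell by 0.91 ± 0.15 (adjusted p = 0.00653, limma). msp-55, on the left of chromosome IV (5055631 to 5056014), stood at 285 and 255 FPKM with B12 and at 156 and 132 FPKM with propionate, and fell by 0.91 ± 0.18 (adjusted p = 0.0182, limma). The low-level gene ssp-37 stood at 9.78 and 3.56 FPKM with B12 and at 0.89 and 0 FPKM with propionate, and fell by 2.35 ± 0.46 (adjusted p = 0.0153, limma). In all 3 genes both propionate libraries lay under both B12 libraries.

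The other 7 that fell were msp-142, msp-65, msp-49, msp-64, msp-33, msp-3 and msp-51, with log2 differences from -0.81 to -0.49. By position, 6 of 12 tested msp genes on chromosome II, 3 of 8 on the left of chromosome IV and 0 of 9 in the middle of chromosome IV fell. Of the 46, 39 had propionate libraries under both B12 libraries, against 20% of all genes, and 26 had an unadjusted p under 0.05 against 8.85%. The median difference was -0.47 over the sperm genes and 0.04 over all genes. msp-59 had a difference of -0.45 with an adjusted p of 0.0951 in limma, and sss-1 of -0.72 with an adjusted p of 0.0832. The count of 10 dropped to 0 without nhr-10 B12 library 1 or without nhr-10 propionate library 2. Against untreated nhr-10 animals, B12 with propionate left 0 sperm genes called (0.674% of all genes were higher and 0.751% lower), 2 had an unadjusted p under 0.05 for a lower value against 9.35%, and the median was -0.05.

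Genes of moulting and of yolk changed strongly in the same nhr-10 comparison. Of 25 moulting and cuticle genes 12 rose, among them fbn-1, a fibrillin-like protein of the outer matrix, by 1.60 ± 0.32 (adjusted p = 0.0183, limma), and 1, the adult collagen gene col-19, fell. All 6 yolk protein genes fell, vit-4 by 4.89 (adjusted p = 0.0269, limma), and the yolk sum with propionate was 0.115 of the B12 level. That ratio was 0.212 without propionate library 2, 0.0182 without propionate library 1 and 0.199 without B12 library 1. nhr-10 propionate library 2 had the lowest yolk sum of all libraries, 104 FPKM against 1213 FPKM in library 1. It also had the highest moulting and cuticle sum, 5059 FPKM against 3968 FPKM in library 1. The sperm-gene calls of this comparison were lost without it, as given above. It also enters every other comparison that uses the nhr-10 propionate group. Of the 41 other sperm genes only nspd-9, a nematode-specific peptide gene, fell, by 1.49 ± 0.24 (adjusted p = 0.00651, limma). The part of developmental stage in the sperm-gene values was not tested. With axes made from the moulting, collagen and yolk genes of these same libraries as covariates, none of the sperm-gene calls was kept. That fit has fewer degrees of freedom, and its share of calls over all genes is not given here. It therefore does not show what part stage has.

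In nhr-68 animals the treatments called no sperm gene. B12 against untreated gave 0 of 46, against 0.25% of all genes higher and 0.501% lower, and none had an unadjusted p under 0.05, against 4.13% higher and 4.31% lower. In 23 genes both B12 libraries lay above both untreated ones, against 17.7% of all genes, and the median log2 difference was 0.19. Propionate against B12 gave 0, against 0.289% of all genes higher and 0.128% lower, with 1 gene higher (4.4% of all genes) and 5 lower (4.88%) at an unadjusted p under 0.05. In 28 genes the propionate libraries lay under both B12 libraries, against 19.9%, and the median was -0.21. B12 with propionate against untreated gave 0, against 0.135% higher and 0.34% lower, with 1 gene higher (1.96% of all genes) and 1 lower (2.43%) at an unadjusted p under 0.05 and a median of -0.01. msp-59 stood at 531 and 481 FPKM untreated, 569 and 588 FPKM with B12, and 495 and 470 FPKM with B12 and propionate, so that the B12 libraries were the highest by a small margin. Within this genotype the summed msp level of chromosome II with B12 was 1.17 times untreated and then 0.826 times B12 with propionate, without overlap. The msp sum of chromosome IV changed by ratios of 1.06 and 0.963, with overlap.

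**Figure D3:**
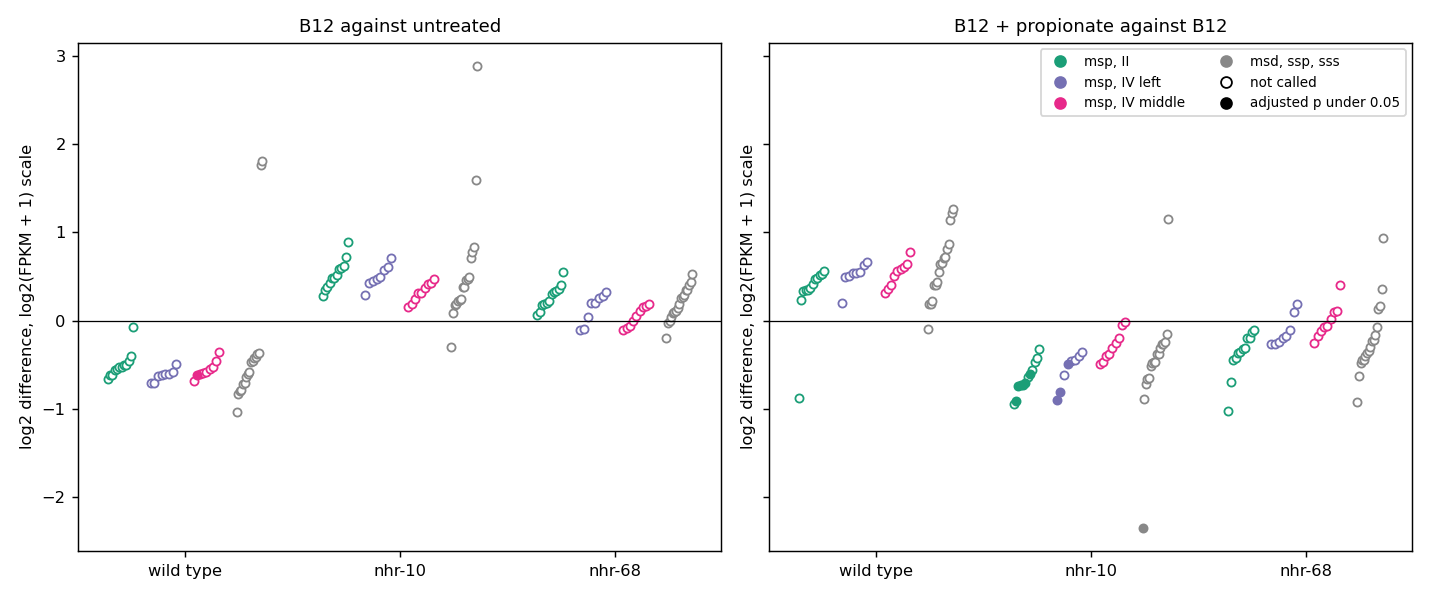
Log2 differences of the 46 tested sperm genes (points, coloured by family and chromosome stretch) for B12 against untreated on the left and B12 with propionate against B12 on the right, by genotype; filled points have a limma adjusted p under 0.05. Medians are -0.59, 0.44 and 0.19 on the left and 0.51, -0.47 and -0.21 on the right for wild type, nhr-10 and nhr-68.

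The difference between a mutant's response and the wild-type response was tested directly, with the B12 libraries used in both responses. For the propionate response, 22 of 46 sperm genes were lower in nhr-10 than in wild type, against 4.96% of all genes, and 0 were higher against 3.53%. By family these were 18 of 29 msp, 1 of 4 msd, 2 of 12 ssp and sss-1. msp-152 went from 423 and 307 FPKM to 464 and 495 FPKM with propionate in wild type, and down in nhr-10, a difference of responses of -1.32 ± 0.21 (adjusted p = 0.0109, limma). msp-55 went from 186 and 139 FPKM to 256 and 255 FPKM in wild type, and its responses differed by -1.57 ± 0.26 (adjusted p = 0.0114, limma). sss-1 differed by -1.59 ± 0.33 (adjusted p = 0.0255, limma). All 3 were higher in both propionate libraries of wild type and lower in both of nhr-10.

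Further genes with the difference were ssp-19 (-2.11 ± 0.59, adjusted p = 0.0468, limma), msp-59 (-0.96, adjusted p = 0.0322), msp-57 (-0.95, adjusted p = 0.033) and msd-4 (-1.37 ± 0.39, adjusted p = 0.049). For ssp-37, listed at 0 in both wild-type B12 libraries, the adjusted p was 0.0166 in limma. The median difference of responses was -0.95 over the sperm genes (-0.71 without wild-type B12 library 2) and -0.03 over all genes, and 39 of 46 had an unadjusted p under 0.05 against 15.3% of all genes. Single libraries decided this count: it was 0 without wild-type propionate library 2, nhr-10 B12 library 1 or nhr-10 propionate library 2, 1 without wild-type B12 library 2, 31 without wild-type B12 library 1, and 16 to 21 without each of the other 3. In the same test 7 of 41 other sperm genes, 12 of 25 oocyte genes and 6 of 6 yolk genes were lower, and of 25 moulting genes 5 were higher and 2, col-19 and mlt-7, were lower.

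For the B12 response, 0 sperm genes differed between nhr-10 and wild type after adjustment (0.00642% of all genes were higher). At an unadjusted p under 0.05, 38 of 46 were higher against 4.9% of all genes, with a median difference of 1.01 and the smallest adjusted p, 0.128 in limma, in msp-59 (1.20 ± 0.22). The median was 0.72 without wild-type B12 library 2, and 30 genes had an unadjusted p under 0.05. For nhr-68 against wild type, 0 differed in the B12 response (0% of all genes were higher), with 29 higher at an unadjusted p under 0.05 against 4.3% of all genes and a median of 0.74. In the propionate response 0 differed as well (0% lower), with 23 lower at an unadjusted p under 0.05 against 6.86% and a median of -0.70. The medians without wild-type B12 library 2 were 0.48 and -0.39, with 12 and 10 genes at an unadjusted p under 0.05 and 0 called in both. These counts do not show that the nhr-68 and wild-type responses are alike.

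The next comparisons ask how each deletion differs from wild type under the same treatment, and both use the same wild-type libraries. Untreated nhr-10 animals had lower sperm-gene values, with 43 of 46 genes below 0 and a median of -0.39 against 0.11 over all genes, but 0 were called (0.295% of all genes were lower, 1.1% higher). Both nhr-10 libraries lay under both wild-type libraries in 31 genes, against 16.1% of all genes, and 22 had an unadjusted p under 0.05 against 4.19%. The smallest adjusted p in limma was 0.0905, in ssp-34 (-0.64). msp-59 had a difference of -0.50 ± 0.15 with an adjusted p of 0.140 in limma. With median-ratio scaling, which moved the median of all genes by -0.11, 2 sperm genes were called lower and the median was -0.52.

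With B12 the order was the opposite. Of the 46, 19 were higher in nhr-10 than in wild type, against 6.52% of all genes, and 0 were lower against 3.15%. They were 17 of 29 msp genes (5 of 12 on chromosome II, 8 of 8 on the left of chromosome IV and 4 of 9 in its middle) and 2 ssp genes. msp-79 stood at 668 and 666 FPKM in nhr-10 against 441 and 399 FPKM in wild type, a difference of 0.67 ± 0.12 (adjusted p = 0.0084, limma). msp-65 stood at 249 and 264 FPKM against 150 and 118 FPKM, a difference of 0.94 ± 0.18 (adjusted p = 0.0108, limma). ssp-37 stood at 9.78 and 3.56 FPKM and was listed at 0 in both wild-type libraries (adjusted p = 0.00456, limma). In these genes all nhr-10 libraries were above all wild-type libraries.

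The largest log2 differences among the rest belonged to ssp-19 (1.62 ± 0.42, adjusted p = 0.0325, limma) and msp-10 (0.96 ± 0.25, adjusted p = 0.0347, limma). The 3 most abundant copies were all called: msp-59 at 0.70 (adjusted p = 0.0185), msp-57 at 0.69 (adjusted p = 0.0191) and msp-19 at 0.62 (adjusted p = 0.022, all limma). msd-4 (0.81, adjusted p = 0.0823) and sss-1 (0.59, adjusted p = 0.128) did not pass. In 40 of 46 genes the libraries did not overlap, against 32.2% of all genes, and the median difference was 0.66 against 0.08. Without wild-type B12 library 2 the count was 0 and the median 0.36, without library 1 of that group it was 32, without nhr-10 B12 library 1 it was 0, and without nhr-10 B12 library 2 it was 13. In the same comparison 15 of 25 oocyte genes were higher, led by puf-5, an RNA-binding regulator of oocyte formation (2.08 ± 0.44, adjusted p = 0.0156, limma), and 0 of 41 other sperm genes were called.

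With B12 and propionate, 4 of 46 sperm genes were lower in nhr-10 than in wild type, against 1.59% of all genes, and 0 were higher against 5.6%. msp-152 stood at 318 and 283 FPKM against 464 and 495 FPKM in wild type (-0.67 ± 0.15, adjusted p = 0.0169, limma). sss-1 stood at 166 and 143 FPKM against 298 and 319 FPKM (-0.996 ± 0.23, adjusted p = 0.0234, limma). msp-55 (-0.83 ± 0.18, adjusted p = 0.0176) and msp-142 (-0.61 ± 0.17, adjusted p = 0.046, both limma) were the remaining 2. The nhr-10 libraries were the lower ones in each. The count was 0 without library 2 of either group, 1 without wild-type library 1 and 3 without nhr-10 library 1. The median over the sperm genes was -0.35 against 0.02, and 34 of 46 lay lower without overlap against 24.1% of all genes. Of the other sperm genes nspd-9 and spe-11, a paternal factor that the egg needs for development, were lower, and 11 of 25 moulting genes were higher.

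nhr-68 animals differed from wild type copy by copy. Untreated, 10 of 46 sperm genes were lower than in wild type, against 3.58% of all genes, and 1 was higher against 2.44%. msp-51, on the left of chromosome IV (5294957 to 5295340), stood at 290 and 280 FPKM against 557 and 688 FPKM in wild type, a difference of -1.12 ± 0.14 (adjusted p = 0.00146, limma). msp-65, also on the left of chromosome IV (5316523 to 5316906), stood at 83.7 and 80.9 FPKM against 180 and 263 FPKM, a difference of -1.39 ± 0.18 (adjusted p = 0.0025, limma). msp-79 stood at 383 and 348 FPKM against 645 and 641 FPKM, a difference of -0.81 ± 0.12 (adjusted p = 0.00487, limma). The nhr-68 libraries were the lower ones throughout, and msp-51 and msp-65 stayed called whichever of the 4 libraries was left out.

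The other genes lower in untreated nhr-68 animals were msp-19 (-0.89, adjusted p = 0.00677, limma), msp-59 (-0.69 ± 0.15, adjusted p = 0.0248), sss-1 (-1.08 ± 0.23, adjusted p = 0.0235), msp-76, msp-55, msp-113 and msp-77. The gene that was higher was ssp-37, at 3.65 and 5.11 FPKM against 0.18 and 1.26 FPKM (1.71 ± 0.46, adjusted p = 0.047, limma). msp-57, at 630 and 625 FPKM against 634 and 737 FPKM, had a difference of -0.12 (adjusted p = 0.679, limma). In place of 11 calls there were 5 and 3 without wild-type library 1 and 2, and 4 and 2 without nhr-68 library 1 and 2.

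Among the msp genes the calls differed between the chromosome stretches. Lower values were not particular to genes of these stretches. The list of other sperm genes, not chosen by position, summed to 2680 and 2379 FPKM in untreated nhr-68 against 3848 and 3897 FPKM in wild type. On the left of chromosome IV, msp-57 and msp-53 were not called, msp-53 at 449 and 415 FPKM against 413 and 551 FPKM. Untreated, 6 of 8 tested msp genes on the left of chromosome IV were lower in nhr-68, with a median difference of -0.77, and 3 of 9 in the middle of chromosome IV, with a median of -0.43. On chromosome II 0 of 12 were called, with a median of -0.07 that ran from -0.17 to 0.07 when 1 library was left out. With B12, 8 of 12 msp genes on chromosome II were higher in nhr-68 than in wild type, with a median of 0.73, and none of those on chromosome IV, with medians of 0.04 and 0.18. Without wild-type B12 library 2, 0 were called, and the medians were 0.39 on chromosome II, -0.20 on the left of chromosome IV and -0.17 in its middle. With B12 and propionate, 5 of 8 on the left of chromosome IV and 1 of 9 in its middle were lower, with medians of -0.72 and -0.43, and 0 of 12 on chromosome II, where the median was -0.06 and turned to 0.02 with median-ratio scaling.

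The split held in every library. The msp sum of chromosome IV divided by that of chromosome II was 1.41 to 1.65 in the 6 nhr-68 libraries and 1.98 to 2.49 in the 12 others, without overlap. Wild-type B12 library 2, with a ratio of 2.26, lay within the range of the other libraries. The chromosome II sum was 3250 to 4196 FPKM in nhr-68 against 2096 to 3879 in wild type, and the chromosome IV sum was 5262 to 5904 FPKM against 4732 to 8716. The ratio was higher with propionate than with B12 in nhr-10 (2.49 and 2.48 against 2.22 and 2.11) and in nhr-68 (1.65 and 1.64 against 1.41 and 1.42). Because reads that fit several copies were divided by estimate, a sequence difference between strains in some copies and a difference in their transcription cannot be told apart in these values.

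**Figure D4:**
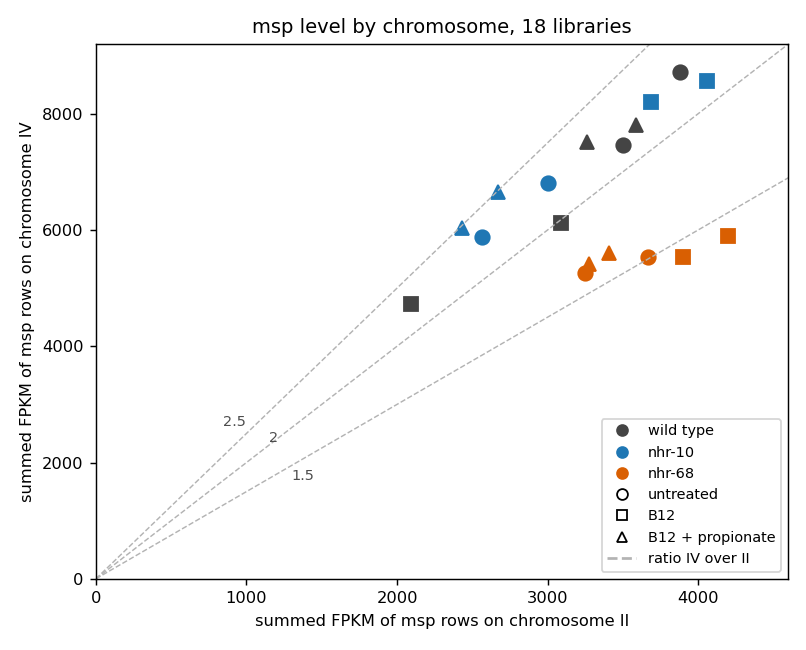
Summed FPKM of the msp genes on chromosome II (x axis) and on chromosome IV (y axis), 1 point per library, coloured by genotype; dashed lines mark ratios of 1.5, 2 and 2.5. The 6 nhr-68 libraries lie between ratios of 1.41 and 1.65, under all 12 others, which lie between 1.98 and 2.49.

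The genes msp-51 and msp-65 separated nhr-68 from all other libraries in every treatment. msp-51 ranged from 280 to 342 FPKM in the 6 nhr-68 libraries against 372 to 688 FPKM in the other 12, and msp-65 from 80.9 to 105 FPKM against 118 to 264 FPKM. These 2 of 46 genes were lower without overlap, against 0.77% of all tested genes, and 0 were higher against 0.327%. For the wild-type libraries and for the nhr-10 libraries, each against the other 12, 0 of 46 sperm genes lay apart in either direction, where the shares over all genes were 0.347% higher and 1.5% lower for wild type and 0.25% and 0.135% for nhr-10.

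The neighbours of the msp genes gave a reference for the chromosome stretches. In untreated nhr-68 against wild type, 55 other genes within the left stretch of chromosome IV had a median log2 difference of -0.39, with 8 lower and 4 higher. In the middle stretch 112 other genes had a median of -0.22, with 24 lower and 0 higher. Within the stretch of chromosome II 235 other genes had a median of -0.08, with 11 lower and 9 higher. Over the whole of chromosomes II and IV the medians of non-members were 0.01 and -0.04. Of 2627 such genes on chromosome II 95 were lower and 58 higher, and of 2687 on chromosome IV 181 were lower and 62 higher. Among all tested genes 3.58% were lower and 2.44% higher. With propionate the medians of the neighbours were -0.29 for the left of chromosome IV, -0.22 for its middle and -0.15 for chromosome II, and with B12 they were -0.01, -0.08 and -0.04. Whether these neighbours are themselves expressed in sperm was not tested.

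With B12, 10 of 46 sperm genes were higher in nhr-68 than in wild type, against 5.25% of all genes, and 0 were lower against 4.58%. msp-3, on chromosome II (4785898 to 4786281), stood at 262 and 252 FPKM against 153 and 110 FPKM, a difference of 0.98 ± 0.17 (adjusted p = 0.00526, limma). msp-49, on chromosome II (5194366 to 5194749), stood at 274 and 255 FPKM against 169 and 113 FPKM, a difference of 0.93 ± 0.17 (adjusted p = 0.00725, limma). ssp-19 stood at 25.9 and 20.1 FPKM against 11.4 and 2.61 FPKM, a difference of 1.83 ± 0.42 (adjusted p = 0.0177, limma). The nhr-68 libraries were above the wild-type ones in each.

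ssp-37 stood at 7.22 and 3.51 FPKM with B12 in nhr-68 and was listed at 0 in both wild-type libraries (adjusted p = 0.0061, limma). In contrast msp-59 (0.13, adjusted p = 0.641), msp-19 (-0.08) and sss-1 (-0.08) had small differences, and the ssp-9 gene E03H12.10 had one of 0.80 with an adjusted p of 0.0569 in limma. The count was 0 without wild-type B12 library 2 or without nhr-68 B12 library 1, 3 without nhr-68 B12 library 2, and 14 without wild-type B12 library 1; the median of 0.26 over the sperm genes became 0.05 without wild-type B12 library 2.

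With B12 and propionate, 8 of 46 sperm genes were lower in nhr-68 than in wild type, against 1.95% of all genes, and 0 were higher against 1.18%. msp-51 stood at 283 and 311 FPKM against 614 and 571 FPKM, a difference of -0.99 ± 0.14 (adjusted p = 0.00286, limma). msp-65 stood at 86.3 and 85.7 FPKM against 194 and 219 FPKM, a difference of -1.25 ± 0.18 (adjusted p = 0.00505, limma). sss-1 stood at 109 and 142 FPKM against 298 and 319 FPKM, a difference of -1.30 ± 0.23 (adjusted p = 0.0147, limma). All nhr-68 libraries lay under all wild-type libraries in these genes.

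ssp-33, on chromosome V (14711377 to 14711700), stood at 4.25 and 4.33 FPKM against 12.8 and 15.3 FPKM, a difference of -1.50 ± 0.28 (adjusted p = 0.0156, limma), and the other genes lower were msp-19, msp-59, msp-76 and msp-55. The count was 0 without nhr-68 library 1, 3 without nhr-68 library 2 and 2 without either wild-type library. The sss-1 level of nhr-68 animals, 109 to 161 FPKM over the 6 libraries, overlapped the other genotypes through wild-type B12 library 2 (129 FPKM) and nhr-10 propionate library 2 (143 FPKM).

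**Figure D5:**
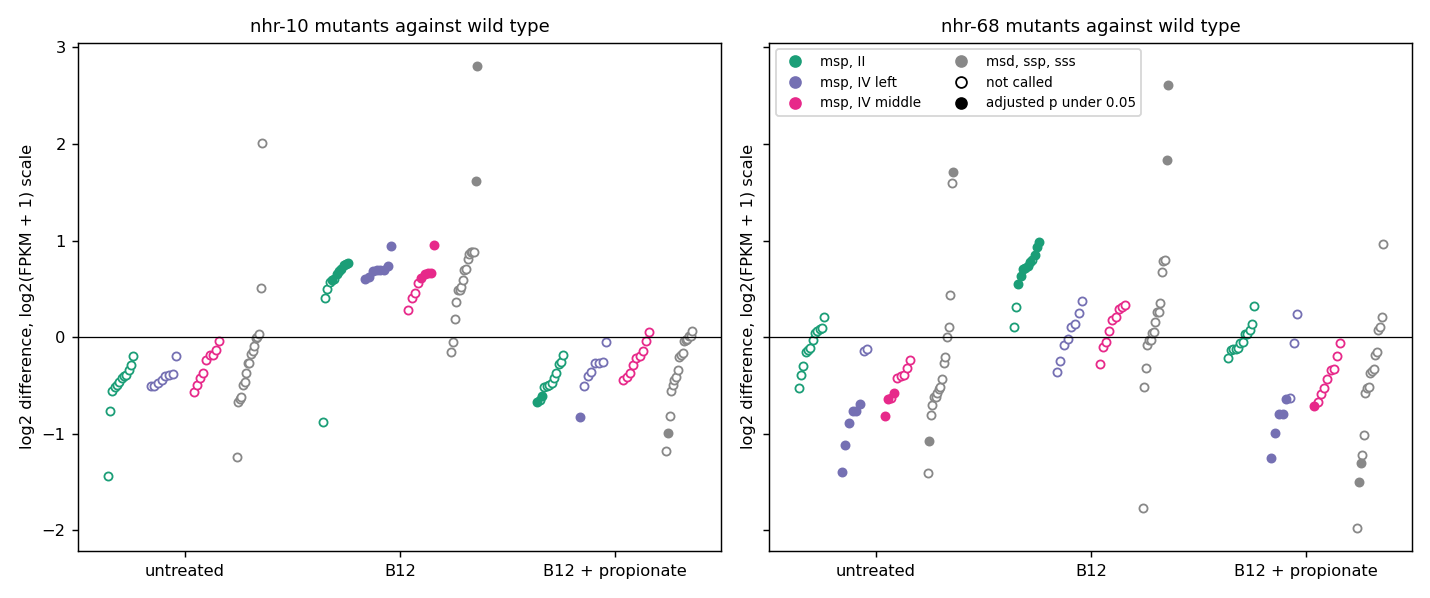
Log2 differences of the 46 tested sperm genes between nhr-10 and wild type on the left and between nhr-68 and wild type on the right, in the 3 treatments; points are genes, coloured by family and chromosome stretch, and filled where the limma adjusted p is under 0.05. Filled points number 0, 19 and 4 for nhr-10 and 11, 10 and 8 for nhr-68 in untreated, B12 and B12 with propionate.

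Other genes of the sperm programme give the wider setting for nhr-68. Untreated, 8 of 41 other sperm genes were lower than in wild type and 40 of 41 lay below 0, with a median of -0.60. They were led by spe-11 (-0.82 ± 0.14, adjusted p = 0.00805, limma), smz-1, a PDZ-domain sperm protein (-0.71 ± 0.13, adjusted p = 0.0115, limma), and spe-43, which acts in sperm activation (-1.18 ± 0.22, adjusted p = 0.012, limma). With B12 and propionate 8 of 41 were lower again, with a median of -0.57, led by spe-11 (-0.79, adjusted p = 0.0144, limma). With B12, 1 was higher and 1 lower. The 48 sperm genes divided by this list gave a ratio of 3.05 to 4.62 over the 18 libraries, lowest in wild-type B12 library 1 and highest in nhr-68 propionate library 1.

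Genes that regulate the switch between sperm and oocytes showed few calls. Of 16 such genes 0 were called in untreated nhr-68 against wild type. her-1, whose secreted product promotes male fate, was higher in nhr-68 with B12 (1.38 ± 0.29, adjusted p = 0.0127, limma) and with B12 and propionate (2.20 ± 0.29, adjusted p = 0.00244, limma). fog-1, an RNA-binding protein that sets germ cells on the sperm path, was higher with B12 in nhr-68 (1.21, adjusted p = 0.0209) and in nhr-10 (1.0, adjusted p = 0.0466, both limma). fog-3, which acts with fog-1, was higher in nhr-10 with propionate (1.08, adjusted p = 0.0275, limma). In the difference of the nhr-10 and wild-type propionate responses 2 regulators were lower: fem-3, which promotes sperm fate (-1.40, adjusted p = 0.034), and puf-8, an RNA-binding protein of the germline (-0.94, adjusted p = 0.0452, both limma).

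Markers of other cells and of stage are given beside these values. The 25 oocyte genes summed to 1942 to 3298 FPKM in nhr-68, 788 to 2358 FPKM in wild type and 863 to 2530 FPKM in nhr-10. In untreated nhr-68 all 25 lay above wild type, with a median of 0.87. Of these, 0 were called in limma, against 2.44% of all genes higher, and 16 had an unadjusted p under 0.05 against 9.7%. With B12 9 of 25 were higher in nhr-68, and that contrast also uses wild-type B12 library 2. The 27 germline and meiosis genes had a median of 0.19 in untreated nhr-68 against wild type and 0 were called. Of 6 yolk genes 4 were higher in nhr-68 with B12, led by vit-1 (4.41, adjusted p = 0.00802, limma), and 0 were called in the other treatments. Of 25 moulting genes, fbn-1 alone was higher untreated (1.94, adjusted p = 0.00774, limma). With B12 6 moulting genes were higher, among them fbn-1, dpy-10 and noah-2, and 3 were lower (mlt-8, acn-1 and nekl-2). With propionate 5 were higher, led by fbn-1 (2.40, adjusted p = 0.00286, limma), and 0 were lower. The part of stage in the nhr-68 values was not tested.

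Markers of male somatic tissue were close to absent. Of 11 such genes 3 passed the level for testing (mab-3, try-5 and cwp-4), and the other 8, among them lov-1, pkd-2 and klp-6 of the male sensory neurons, were under 1 FPKM in every library, with cwp-3 listed at 0 in 17 of 18. The 11 genes summed to 6.22 to 9.07 FPKM in wild type, 7.98 to 22.2 FPKM in nhr-10 and 10.4 to 14.8 FPKM in nhr-68. mab-3, a regulator of male fate, was higher in nhr-68 than in wild type with propionate (1.39, adjusted p = 0.035, limma) and in nhr-10 (1.97, adjusted p = 0.00256, limma). Its part in the sperm-gene values was not tested.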

How the data were processed

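RNA of whole L4 animals was sequenced as 18 libraries. The authors deposited 1 table of FPKM values for 20953 genes, 1 column per library. The tools were HISAT, Bowtie2 and RSEM on the genome build WBcel235, per the submitters' processing notes; for versions, settings and strand, these were not given in the sources used here. Reads shared by similar genes are divided by RSEM by estimate. FPKM is relative to the library total, so large changes in abundant transcripts move the rest. Each column was assigned by its sample title, and no value column was left unused (0). Symbols came from WormBase names (19090 genes had one) and positions from Ensembl release 115; 208 identifiers were not in that annotation and 130 genes were at 0 everywhere. Protein and promoter sequences were not used here.

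A gene was tested if 2 or more libraries reached 1 FPKM, which held for 15575. The test was limma 3.58.1 (R 4.3.3) on log2(FPKM + 1), with 1 mean per group, all 18 libraries in the fit and a variance trend; residual degrees of freedom were 9 and prior ones 3.6. Because of the added 1, log2 differences of low genes are too small. Benjamini-Hochberg adjustment ran over all tested genes, and calls needed an adjusted p under 0.05. Sums, ratios and medians over the sperm genes carry no test. The fit was checked on simulated data. Tables were handled in Python 3.11.15 with pandas 2.3.3.

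The sperm genes and the lists of other sperm genes, regulators of the sperm programme, oocyte, germline, male somatic, moulting and yolk genes were chosen with earlier results of these data known. Named are the 3 genes of highest mean FPKM in each family and, in each comparison, all called genes where there are at most 6, otherwise the 3 with the smallest adjusted p and the 3 with the largest log2 difference, plus up to 3 called genes of a list. Genes named beyond this rule (msp-63, msp-74, the second gene of a shared symbol, further called genes and the genes used to describe a list) were chosen after their values were seen. Alternatives were a pseudocount of 0.1, no filter, median-ratio scaling, a fit restricted to the compared groups, a replicate block, axes of moulting, collagen and yolk genes as covariates, and leaving out each library in turn. Ratios of sums and medians by chromosome stretch without each library were added after seeing the data.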

Additional observations from a re-analysis of the deposited data

Results flagged for a closer look

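In the direct test, the propionate response of 22 of 46 sperm genes was lower in nhr-10 than in wild type, against 4.96% of all genes (limma, adjusted p under 0.05). This count depended on single libraries and on the settings of the fit, as given below. The summed FPKM of the 48 genes with B12 was 1.33 times untreated in nhr-10 and 1.12 times in nhr-68, with every library on the side opposite to wild type; these differences between sums were not tested. With propionate the sum was 0.726 times the B12 level in nhr-10 and 0.897 times in nhr-68, on the side opposite to wild type and not tested. Both sets of ratios use the same B12 libraries, so they are not separate results. Gene by gene, the direct test called 0 sperm genes for the B12 response of either mutant and 0 for the nhr-68 propionate response. Groups hold 2 libraries, too few for a check of single samples against their group.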

How the results depend on the processing

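No comparison with calls among the sperm genes kept its count under every alternative, and 1 library could decide it; the nhr-68 treatment comparisons and the differences of nhr-68 and wild-type responses had 0 calls in every fit run. Without each library in turn, the count ran from 0 to 11 for wild-type B12 against untreated (1 with all libraries) and for wild-type propionate against B12 (0), from 0 to 1 for nhr-10 B12 against untreated (0), from 0 to 6 for nhr-10 propionate against B12 (10) and from 0 to 1 for nhr-10 propionate against untreated (0). For nhr-10 against wild type it ran from 0 to 1 untreated (0), 0 to 32 with B12 (19) and 0 to 3 with propionate (4). For nhr-68 against wild type it ran from 2 to 5 untreated (11), 0 to 14 with B12 (10) and 0 to 3 with propionate (8). The difference of the nhr-10 and wild-type responses ran from 0 to 7 for B12 (0) and 0 to 31 for propionate (22). In these fits the lone library left in a group was assumed to vary like the others.

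Without the filter the count was 0 for wild-type B12 and 6 for nhr-10 propionate against B12. Median-ratio scaling gave 0 for wild-type B12, 2 for nhr-10 B12, 16 for nhr-10 propionate against B12 and 2 for untreated nhr-10 against wild type. It also moved the summed FPKM of nhr-68 over untreated wild type from 0.838 to 0.902 with B12 and from 0.751 to 0.781 with propionate. With only the compared groups in the fit, and so fewer libraries behind the spread, the counts were 0 for wild-type B12 and for nhr-10 propionate against B12. They were 1 and 0 for nhr-10 against wild type with B12 and with propionate, and 1, 4 and 0 for nhr-68 against wild type untreated, with B12 and with propionate. The difference of propionate responses then had 0. With the stage axes as covariates all 8 comparisons that had calls had 0; the cause was not tested.

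Of 30 calls of named genes, 28 were kept with a pseudocount of 0.1, 24 without a filter, 29 with median-ratio scaling, 4 with only the compared groups and 0 with the stage axes, and none turned direction. The replicate numbers were not used to pair the libraries in the main fit. Same-numbered libraries correlated over 0.1 in 15 of 36 pairs of groups, with r from -0.379 to 0.563 and a median of 0.08. These values do not settle whether some groups share a shift by replicate number. With the replicate block the counts were those of the fit without it, 1 for wild-type B12, 19 for nhr-10 against wild type with B12 and 22 for the difference of propionate responses among them, and 30 of 30 named calls were kept. Every group holds 1 library of each number, so the block cannot change a log2 difference, only the spread it is judged by. Sums over genes with a protein unlike any other were not run, as no protein sequences were used here. Depth is known only as an estimate, and values near 0.2 FPKM in a gene of 384 bases rest on about 1 fragment.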
